A study of Mus musculus with 60 samples.

Results

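Mouse liver 7 days after removal of 2/3 of the organ (2/3 partial hepatectomy, PHX) was compared with normal liver, using the 3 samples labelled PHX-D7 and the 3 samples labelled Normal liver, 6 of the 60 samples of the series. Genes were taken if 3 or more of these 6 samples reached 1 FPKM, which left 10642 of the 17473 gene symbols in the table of the 18 liver samples. Of these, 503 genes were below 1 FPKM in every Normal sample and entered through PHX-D7 alone, 237 of them called higher in what follows, and 126 entered through Normal liver alone. FPKM is the number of sequenced fragments per kilobase of a gene, scaled to the depth of the sample. The study asked whether IL6 lets hepatocytes expand over the long term in culture. It set hepatocytes cultured with IL6 beside livers collected from 6 h to 14 days after PHX (labelled PHX-6h to PHX-D14).

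All animals of both groups were wild type (WT) C57BL/6 mice, given in the methods as C57BL/6J of 8 to 10 weeks. They differed in the operation and the 7 days after it, while the label of Normal liver names no operation and no sham. The labels name no transgene and no drug. RNA came from whole liver tissue and was selected by poly(T) capture. A value is therefore a mixture over all cell types of the organ, and more cells of a type and more RNA per cell cannot be told apart. The labels do not say that samples of a group came from separate mice, so p-values measure only the spread between samples of a group, which may be technical. That spread was pooled over all 18 liver samples of the series.

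After partial hepatectomy the remaining lobes enlarge until the mass of the liver is restored. Hepatocytes enter the cell cycle first, and biliary, endothelial and stellate cells follow. Cytokines of the IL6 family from Kupffer cells, the resident macrophages of the liver, induce acute phase proteins in hepatocytes through STAT3. Interferons induce antiviral proteins, guanylate binding proteins and the machinery that presents peptides on MHC molecules.

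The libraries held 55.8 M to 57.9 M reads (M, mega) in Normal liver and 57.3 M to 73.2 M at PHX-D7, as recovered from the steps of the deposited values. The hepatocyte marker Alb was the most abundant of the defining markers, and Cpa1, a marker of the exocrine pancreas, was at or near 0 in all 6 samples. In the wider series 1 of the 3 PHX-D3 libraries, replicate 2, stood apart from the other two, and values set against PHX-D3 are given with and without it.

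To be called changed, a gene needed an adjusted p under 0.05 together with a difference of at least 2-fold between group means on the log2(FPKM + 1) scale. Differences are given with their standard error (SE), with 3 samples in each group, and p-values are from limma, adjusted by Benjamini-Hochberg over all 10642 genes. For 3 samples against 3 the smallest p of an exact permutation test is 0.10. At PHX-D7, 978 genes had changed against Normal liver. Of these 865 were higher, 8.13% of all genes tested, and 113 were lower, 1.06% of them. These 2 shares are the background for every list count against Normal liver below. In all 978 the 3 values of one group lay beyond those of the other. The median over all genes was 0.13 on the log2 scale. With the samples centred on their medians the counts were 604 higher and 207 lower, so that 74.5% of changed genes were higher in place of 88.4%. With quantile normalization they were 577 and 251, or 69.7% higher.

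**Figure D1:**
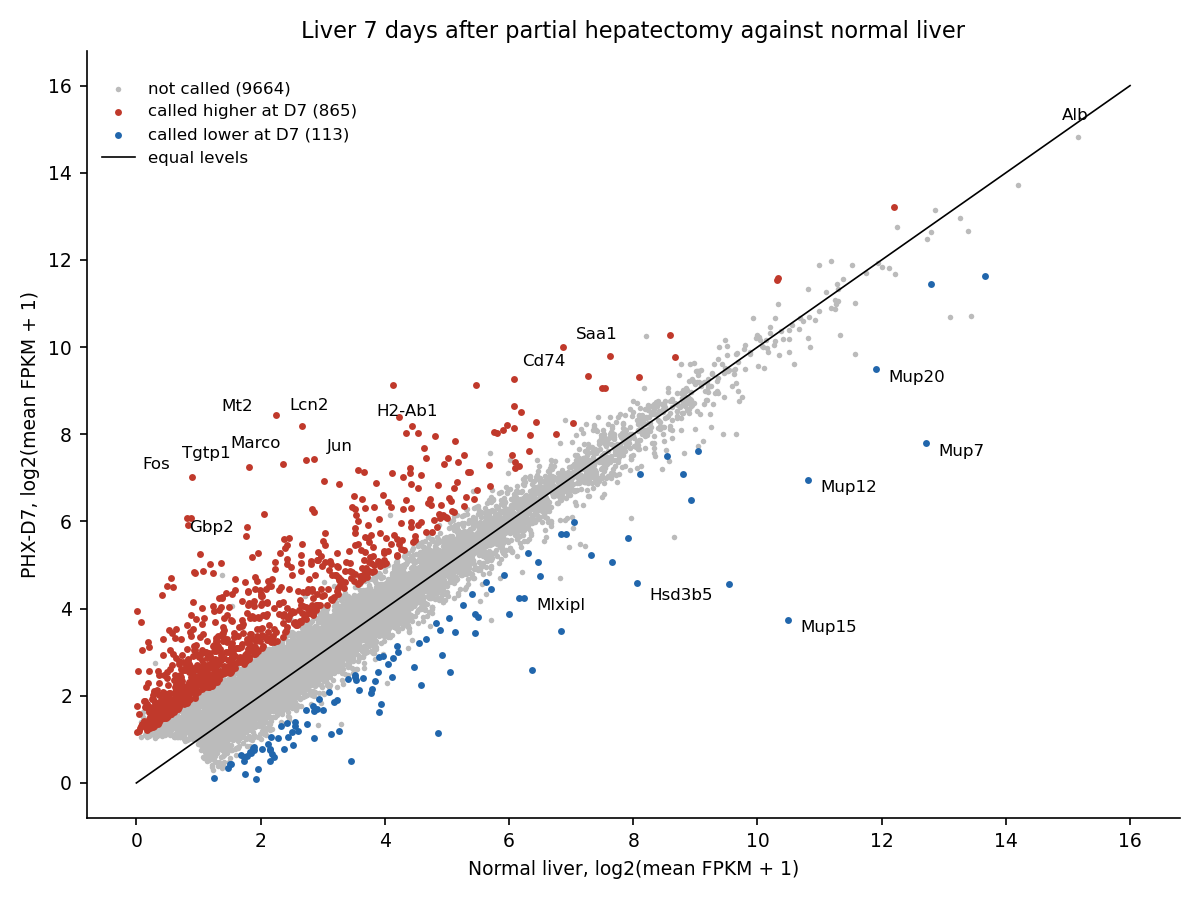
Level of 10642 genes in Normal liver (x axis) and at PHX-D7 (y axis), each as log2 of the mean FPKM of 3 samples plus 1, with the line of equal levels. The 865 genes called higher lie above the line at low and middle levels, and members of the Mup family are among the 113 called lower, while Alb lies close to it.

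Among the larger rises at PHX-D7 was a group of genes that interferon-gamma is known to induce. Of 31 interferon response genes listed, 29 were tested and 20 rose, against a background of 8.13%, and none fell. At an unadjusted p under 0.05 in limma 1 of them was lower, and limma voom on the recovered reads called 0 lower. Their median was 1.48 on the log2 scale, beside 0.13 over all genes. Tgtp1, an immunity-related GTPase, measured 1.91, 2 and 3.63 FPKM in Normal liver replicates 1 to 3 and 139, 161 and 156 FPKM in PHX-D7 replicates 1 to 3. All 3 PHX-D7 samples lay far above all Normal samples, a difference of 5.48 ± 0.31 (SE) on the log2 scale with an adjusted p = 5.4e-09. Tgtp1 has a near-identical neighbour, Tgtp2, so that its reads may be shared. Igtp, another immunity-related GTPase, measured 13.6, 17.9 and 30.5 FPKM in Normal liver and 272, 305 and 290.0 FPKM at PHX-D7. The groups did not overlap and differed by 3.82 ± 0.41 (limma adjusted p = 4.4e-06). Gbp2, a guanylate binding protein, went from 1.78, 3.11 and 2.43 FPKM to 61.9, 57.7 and 52.2 FPKM, again without overlap, a rise of 4.1 ± 0.17 (limma adjusted p = 1.7e-10). Irf7, a regulator of interferon genes, rose by 2.24 on the log2 scale. Gbp3 rose by 2.96, Gbp6 by 2.36 and Iigp1 by 2.07. Among genes better known as targets of type I interferon, Isg15 rose by 1.48, Ifit2 by 1.22, Ifit3 by 1.12 and Rsad2 by 1.15, with Ifit3 at 0.99 without Normal liver replicate 1. Ifit2 was just below 2-fold with quantile normalization, and Ifit3 and Rsad2 were below it with that and with median centring. Ubd, a ubiquitin-like protein inducible by interferon-gamma and outside the list, was among the 12 largest rises of all genes. It went from 0.98, 0.918 and 0.461 FPKM to 52.7, 60.8 and 65.3 FPKM, a change of 5.09 ± 0.45. Ubd was below 1 FPKM in every Normal sample and passed the filter through PHX-D7 alone, so that the filter fixed its direction.

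The 250 bases upstream of the gene start are shown for Tgtp1 and 5 genes of this list because they hold matches to motifs known to bind interferon-activated factors. They were read from RefSeq on GRCm38.p6 and are written 5′ to 3′ on the strand of the gene, at chr11:48992247-48992496 (minus strand) for Tgtp1, chr11:58199306-58199555 (plus) for Igtp, chr3:142620413-142620662 (plus) for Gbp2, chr3:142559794-142560043 (plus) for Gbp3, chr4:156200819-156201068 (minus) for Isg15 and chr5:92348890-92349139 (minus) for Cxcl10. Capitals mark matches to TTCNNNGAA, the GAS motif of interferon-gamma responses, and to a pair of GAAA half-sites with 2 bases of any kind (NN) between them, the ISRE motif, which IRFs bind. Both were searched on both strands, with N as any base and overlaps allowed.
Tgtp1: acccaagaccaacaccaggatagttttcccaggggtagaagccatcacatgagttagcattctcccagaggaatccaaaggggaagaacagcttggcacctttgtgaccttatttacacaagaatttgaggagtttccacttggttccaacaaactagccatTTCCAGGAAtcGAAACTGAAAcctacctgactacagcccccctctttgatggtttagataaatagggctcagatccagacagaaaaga
Igtp: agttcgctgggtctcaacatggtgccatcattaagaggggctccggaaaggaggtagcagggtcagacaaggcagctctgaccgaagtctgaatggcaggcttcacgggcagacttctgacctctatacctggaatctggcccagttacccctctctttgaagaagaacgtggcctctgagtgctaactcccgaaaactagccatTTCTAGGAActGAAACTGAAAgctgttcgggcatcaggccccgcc
Gbp2: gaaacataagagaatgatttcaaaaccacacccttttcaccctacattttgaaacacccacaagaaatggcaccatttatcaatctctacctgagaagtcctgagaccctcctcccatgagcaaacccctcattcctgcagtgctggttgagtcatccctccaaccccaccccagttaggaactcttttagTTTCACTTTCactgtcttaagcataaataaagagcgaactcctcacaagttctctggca
Gbp3: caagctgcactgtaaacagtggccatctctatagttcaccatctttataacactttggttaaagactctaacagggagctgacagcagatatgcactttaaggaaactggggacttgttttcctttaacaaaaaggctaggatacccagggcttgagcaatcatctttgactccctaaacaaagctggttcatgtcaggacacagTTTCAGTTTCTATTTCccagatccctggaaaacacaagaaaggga
Isg15: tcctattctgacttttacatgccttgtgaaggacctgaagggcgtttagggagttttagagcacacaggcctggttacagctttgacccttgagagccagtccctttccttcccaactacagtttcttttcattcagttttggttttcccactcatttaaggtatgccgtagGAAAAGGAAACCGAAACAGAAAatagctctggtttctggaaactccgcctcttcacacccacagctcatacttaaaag
Cxcl10: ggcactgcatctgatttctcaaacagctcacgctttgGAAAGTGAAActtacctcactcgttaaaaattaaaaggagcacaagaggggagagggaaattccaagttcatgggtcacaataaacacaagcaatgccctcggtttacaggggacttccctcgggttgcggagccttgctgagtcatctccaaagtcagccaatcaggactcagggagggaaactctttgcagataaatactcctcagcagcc

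In Tgtp1 and in Igtp a GAS match lies 2 bases before an ISRE match. Gbp2 and Cxcl10 hold 1 ISRE match each, Gbp3 holds 2 that overlap, and Isg15 holds 3. An ISRE match was found upstream of 10 of the 15 interferon response genes that rose and had a promoter in the table (66.7%), and of 3 of the 6 that were not called (50.0%). It was present in 234 of 8283 promoters of genes tested (2.83%) and in 821 of all 27025 promoters (3.04%). A GAS match was found in 4 of the 15 that rose (26.7%) and in 2 of the 6 that were not called (33.3%), in 6.1% of promoters of genes tested and in 7.18% of all promoters. Among 8 promoters of MHC and antigen presentation genes that rose, none held an ISRE match and 1 held a GAS match. Among 10 promoters of acute phase genes that rose these numbers were 0 and 2, and among 14 of immediate early genes 1 and 1. These are matches of letters in a short window and do not show binding.

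Genes of antigen presentation rose as well. All 15 genes listed for it were tested, 12 rose and none fell (0 lower at an unadjusted p under 0.05 in limma and 0 called lower by limma voom), with a median of 2.39. The filter admitted 1 of the 15 through PHX-D7 alone, which could only be higher, and of the other 14, 11 rose. H2-Ab1, the beta chain of MHC class II, measured 15.5, 19 and 31.8 FPKM in Normal liver and 296, 247 and 239 FPKM at PHX-D7. The lowest PHX-D7 sample was far above the highest Normal sample, and the difference was 3.56 ± 0.29 (limma adjusted p = 2.6e-07). Cd74, the invariant chain that escorts class II molecules, measured 46.5, 59.8 and 93.5 FPKM and 734, 579 and 545 FPKM in the same order, a rise of 3.25 ± 0.21. H2-Eb1 rose by 3.64, H2-Aa by 3.2 and Ciita, the regulator of class II transcription, by 1.65. In the class I pathway Psmb9 and Psmb8, subunits of the immunoproteasome, rose by 2.88 and 2.39, and Tap1, the peptide transporter, by 2.34. The same 12 of 15 was the lowest count when any of the 6 libraries was left out.

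Chemokines, which attract leukocytes, followed. Of 20 listed, 16 were tested and 10 rose, with a median of 1.79. Cxcl9, which draws T cells and is induced by interferon-gamma, measured 4.99, 5.78 and 7.49 FPKM in Normal liver and 75, 85.6 and 70.9 FPKM at PHX-D7, without overlap and with a difference of 3.48 ± 0.37 (limma adjusted p = 3.6e-06). Ccl5 rose by 3.09, and Cxcl10 by 2.6. Of the 16, 4 passed the filter through PHX-D7 alone and could only be higher, and of the other 12, 7 rose. Without PHX-D7 replicate 1 the number of chemokines that rose was 6.

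Immediate early genes, which cells switch on within minutes of growth factor or stress signals, were high at PHX-D7. Of 20 listed, 19 were tested and 17 rose, with a median of 2.90, and none fell (0 lower at an unadjusted p under 0.05 in limma and 0 called lower by limma voom). Fos, a subunit of the AP-1 transcription factor, measured 0.717, 1.19 and 0.693 FPKM in Normal liver and 128, 127 and 129 FPKM at PHX-D7. The PHX-D7 samples were close to each other and all above the Normal samples, a difference of 6.12 ± 0.74 (limma adjusted p = 1.4e-05). Jun, its partner, measured 6.87, 5.19 and 6.83 FPKM and then 159, 187 and 170.1 FPKM, a rise of 4.57 ± 0.48. Atf3, a stress-induced member of the ATF family, went from 0.688, 0.517 and 1.05 FPKM to 70.8, 62.6 and 65 FPKM, a rise of 5.27 ± 0.65. The groups did not overlap in any of the 3 genes. Nr4a1, an orphan nuclear receptor, measured 1.23, 0.70 and 0.597 FPKM and 70.8, 66.2 and 61.9 FPKM, a rise of 5.21 ± 0.41 (limma adjusted p = 1.7e-07). Btg2, an antiproliferative gene, measured 3.88, 4.06 and 4.51 FPKM and 162, 161 and 152 FPKM, a rise of 4.95 ± 0.66. Egr1 rose by 3.74 and Myc by 2.9. The lowest count on leaving out any of the 6 libraries was 16 of 19, and among the 17 genes that did not pass the filter through PHX-D7 alone 15 rose.

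Markers of immune cells were higher at PHX-D7. All 12 Kupffer cell and macrophage markers listed were tested, 11 rose, and Cd163 did not pass, with a median of 2.13 for the list. Their summed level was 272 to 415 FPKM in Normal liver and 1473 to 2142 FPKM at PHX-D7. Marco, a scavenger receptor of macrophages, measured 4.2, 5.63 and 6.99 FPKM in Normal liver and 205, 149 and 153 FPKM at PHX-D7. The groups were wide apart, by 4.69 ± 0.49 (limma adjusted p = 3.5e-06). Timd4, a receptor for dying cells on resident Kupffer cells, measured 4.13, 6.49 and 5.46 FPKM and 56.5, 37.7 and 36.5 FPKM, a rise of 2.8 ± 0.25. Clec4f, a lectin that marks Kupffer cells, measured 37.5, 60.4 and 53.9 FPKM and 140.4, 96.4 and 99.4 FPKM, a rise of 1.14 ± 0.24 that fell to 0.94 without Normal liver replicate 1 and to 0.97 without PHX-D7 replicate 1, below 2-fold. It was also below 2-fold with median centring and with quantile normalization.

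Of 10 markers of recruited monocytes 6 were tested and 3 rose, Ly6c2 by 2.99, Lyz2 by 2.32 and S100a4 by 2.11. Their summed level was 78.97 to 118.8 FPKM in Normal liver and 371.3 to 517.7 FPKM at PHX-D7. Of 10 neutrophil markers 4 were tested and all 4 rose, and of 11 T and NK cell markers 6 were tested and all 6 rose. Genes below the filter are left out of these counts, and a gene detected at PHX-D7 alone could enter only by being higher there. This held for 2 of the 4 neutrophil, 5 of the 6 T and NK cell, 3 of the 4 B and plasma cell and 2 of the 6 monocyte markers tested. Gzma, a protease of cytotoxic lymphocytes, measured 0.764, 1.2 and 0.748 FPKM in Normal liver and 26.8, 25.3 and 30.3 FPKM at PHX-D7. It was near 1 FPKM in the Normal samples, and the groups differed by 3.91 ± 0.27 (limma adjusted p = 4.4e-08). Nkg7, a granule protein of the same cells, rose by 2.69. S100a9, a subunit of the neutrophil protein calprotectin, rose by 3.88, and S100a8 by 3.7. Over all 11 T and NK cell markers the sum was 2.594 to 4.08 FPKM in Normal liver and 47.68 to 51.56 FPKM at PHX-D7, and over the 10 neutrophil markers it was 1.752 to 7.437 FPKM and 62.73 to 125.2 FPKM. Of 8 B and plasma cell markers 7 were in the table and 4 tested, and 3 rose, with Jchain at 1.89, Cd79b at 1.25 and Cd79a at 1.19. Cd79b was at 0.99 without PHX-D7 replicate 1, and Cd79a and Cd79b were below 2-fold with quantile normalization. Their sum was 1.75 to 3.332 FPKM in Normal liver and 10.39 to 16.23 FPKM at PHX-D7.

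These sums move with the interferon, MHC, chemokine and immediate early genes above and with the matrix genes that follow, many of which macrophages and lymphocytes express. Their part in those results was not tested. PHX-D7 replicate 1 had the highest summed level of macrophage, monocyte, neutrophil, B cell, endothelial and stellate markers of all 6 samples, and the lowest sum of hepatocyte markers, and it was the lowest of the 3 for T and NK cell markers.

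**Figure D2:**
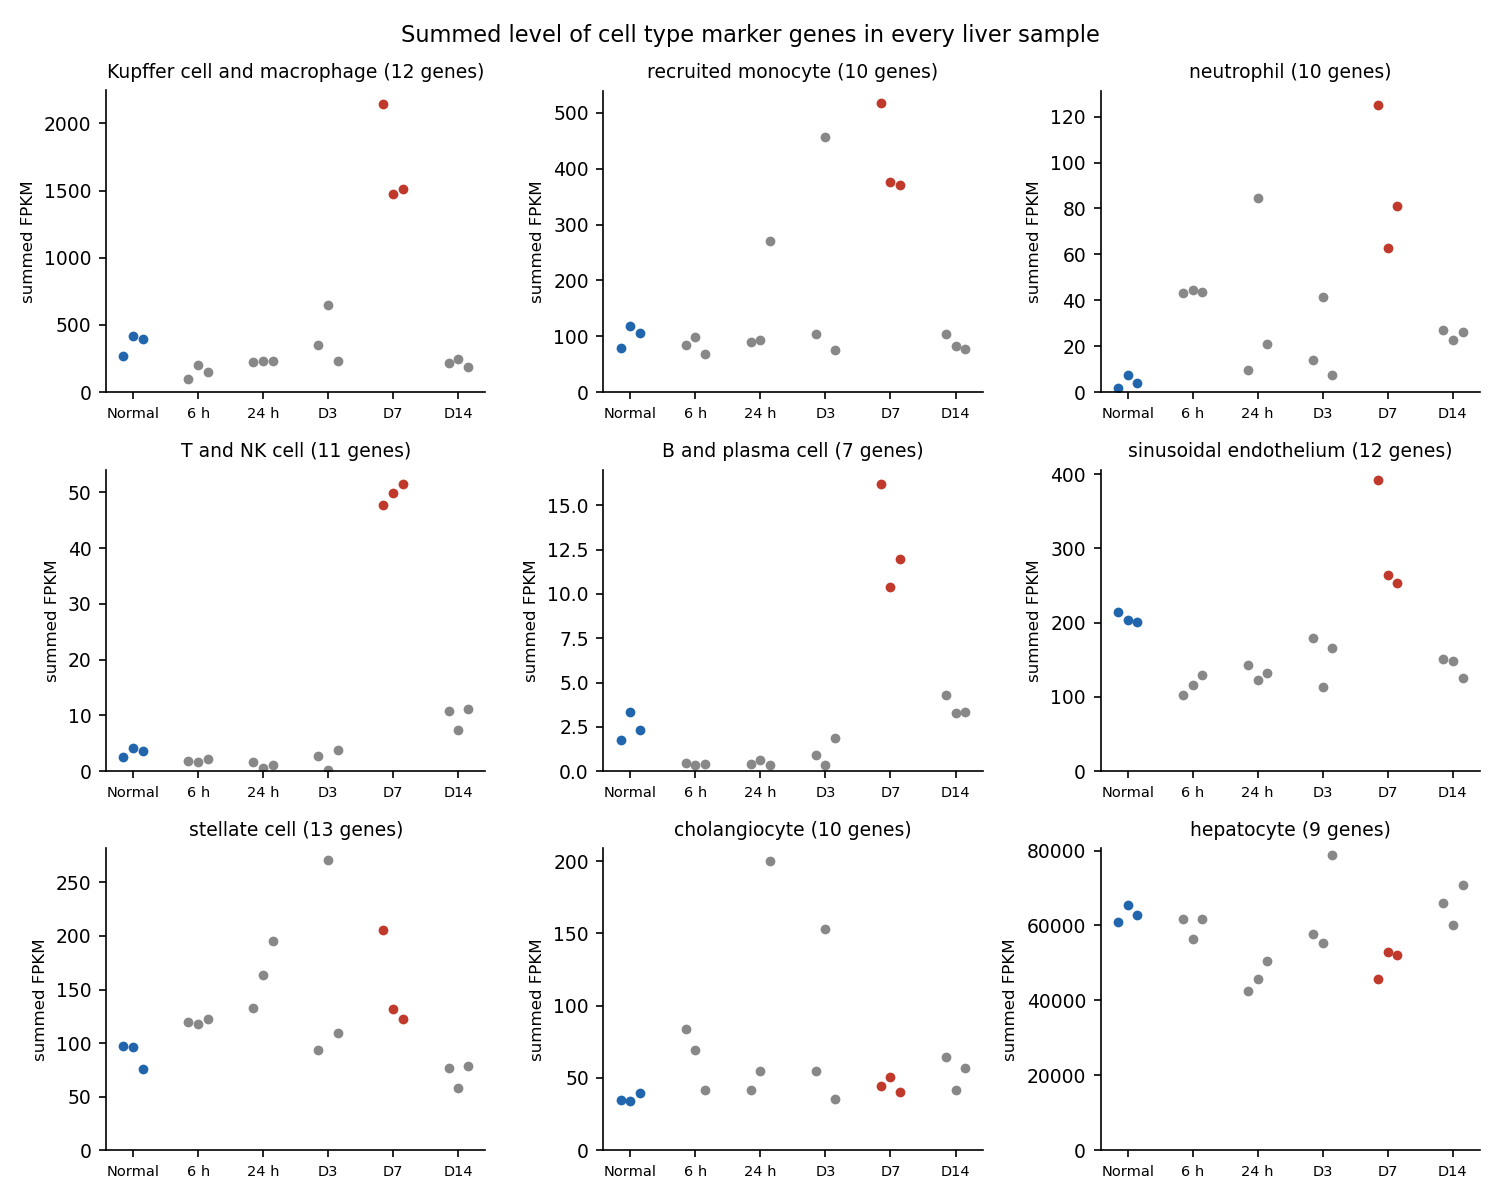
Summed FPKM of the marker genes of 9 cell types (y axis, linear from 0) in each of the 18 liver samples by time after hepatectomy (x axis), with Normal liver in blue and PHX-D7 in red. For Kupffer cell, T and NK cell and B and plasma cell markers the 3 red points lie above every other liver sample, and for hepatocyte markers they lie below the 3 blue points.

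Markers of other non-parenchymal cells were also measured. Of 12 sinusoidal endothelial markers 3 rose, Kdr by 1.06, Pecam1 by 1.16 and Cdh5 by 1.29, and the list had a median of 0.60. Its sum was 200.4 to 214.3 FPKM in Normal liver and 252.9 to 391.9 FPKM at PHX-D7. Stab2, which marks these cells, measured 6.01, 4.56 and 5.18 FPKM and 10.4, 8.85 and 7 FPKM and did not pass (limma adjusted p = 0.08). Of 13 stellate cell and fibroblast markers 12 were tested and 4 rose, Tagln by 1.71, Acta2 by 1.51, Col1a1 by 1.36 and Col1a2 by 1.22, the first 2 being genes of contractile myofibroblasts. The filter admitted 2 of the 12 through PHX-D7 alone, 1 of them among the 4 that rose. Without PHX-D7 replicate 1, 2 rose, and Col1a1 and Col1a2 were then at 0.98 and 0.95. Col1a1 passed in 1 of the 6 fits that left out a library. Kdr did not pass without Normal liver replicate 2 or 3 or PHX-D7 replicate 1 (0.88), and Kdr and Pecam1 were below 2-fold with both other scalings, median centring and quantile normalization. The sum was 75.47 to 97.45 FPKM and 122.3 to 205.6 FPKM. Lrat, which marks quiescent stellate cells, differed by -0.1 and did not pass. None of the 4 cholangiocyte, 3 mesothelial or 1 pancreatic acinar markers tested passed in limma or in limma voom, out of 10, 7 and 7 listed, and 1 cholangiocyte marker was higher at an unadjusted p under 0.05. Krt19, a biliary keratin, differed by 0.74 (limma adjusted p = 0.056), Sox9 by -0.22 and Upk3b, a mesothelial marker, by 0.1, a sign that turned with both other scalings.

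Summed cholangiocyte markers were 33.96 to 39.6 FPKM in Normal liver and 40.03 to 50.82 FPKM at PHX-D7, and mesothelial markers 126.8 to 168.2 FPKM and 261.7 to 266 FPKM. The mesothelial list, with 3 of 7 genes tested, includes Krt8, a keratin of other epithelial cells too. Its sum therefore cannot be read as mesothelium alone. Of 5 red cell genes tested 4 rose, Hbb-bs by 3.09 and Hba-a1 by 2.87 among them. These globin genes have near-identical copies, and 1 of the 5 rose without Normal liver replicate 1 or 3 or PHX-D7 replicate 1, and 2 without PHX-D7 replicate 3. Hbb-bs passed in 2 of the 6 fits without a library and Hba-a1 in 1. Their sum was 87.4 to 150.3 FPKM in Normal liver and 238 to 310.9 FPKM at PHX-D7.

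Genes of the extracellular matrix and its remodelling rose in part. Of 36 listed, 30 were tested and 13 rose, with a median of 1.03 and none lower. Lgals3, a lectin abundant in macrophages, rose by 3.01 and Vim, an intermediate filament of mesenchymal cells and leukocytes, by 2.84. Col4a1, a chain of basement membrane collagen, rose by 1.61 and Tgfb1 by 1.7. The lowest count on leaving out a library was 10 of 30. Of 13 YAP and TEAD pathway genes tested of 16 listed, 4 rose, with Cyr61 at 3.36 and Axl at 1.97. Wwtr1, 1 of the 4, encodes the coactivator TAZ and is not a target, and rose by 1.06. It was below 2-fold without Normal liver replicate 3 (0.96) or PHX-D7 replicate 1 (0.94). With median centring and with quantile normalization 3 of the 13 rose.

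Acute phase genes, which hepatocytes express in inflammation, were still above Normal liver at 7 days. Of 25 listed, 24 were tested and 12 rose, with a median of 1.12, and none fell (0 lower at an unadjusted p under 0.05 in limma and 0 called lower by limma voom). The filter admitted 1 of the 24 through PHX-D7 alone, which could only be higher, and of the other 23, 11 rose. Mt2, a metallothionein that binds zinc, had the largest rise of all 10642 genes. It measured 2.92, 3.68 and 4.6 FPKM in Normal liver and 359, 319 and 356 FPKM at PHX-D7, a difference of 6.2 ± 0.47 (limma adjusted p = 1.3e-07). Mt1 rose by 5.02. Lcn2, an iron-siderophore binding protein, measured 4.64, 3.72 and 7.68 FPKM and 215, 324 and 329 FPKM, again without overlap, a difference of 5.54 ± 0.71 (limma adjusted p = 2.4e-05). Orm2, Saa2 and Saa1 rose by 4.21, 3.82 and 3.27, but these genes have near-identical copies that can share reads. The lowest count on leaving out a library was 9 of 24.

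Of 19 genes of the IL6-STAT3 pathway, 18 were tested and 7 rose, with a median of 0.80. The filter admitted 1 of the 18 through PHX-D7 alone, which could only be higher, and of the other 17, 6 rose. Socs3 and Socs1, feedback inhibitors of cytokine signaling, rose by 2.3 and 2.5, and Junb by 2.78. Socs3 did not pass without Normal liver replicate 3 (2.13, limma adjusted p = 0.053). Il6st, the signaling receptor chain gp130, rose by 1.19, just below 2-fold with both other scalings. Among 36 complement and coagulation genes tested, 1 rose, C3 by 1.22.

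Cell cycle genes were above Normal liver at low levels. Over all 26 mitosis genes listed the sum was 10.7 to 21.39 FPKM in Normal liver and 51.68 to 64.25 FPKM at PHX-D7, and over the 22 S phase genes it was 83.51 to 91.37 FPKM and 131.3 to 159.6 FPKM. Of the mitosis genes 20 were tested and 12 rose, but 14 of the 20 passed the filter through PHX-D7 alone and so could only be higher, and of the other 6, 4 rose. Of the S phase genes 19 were tested and 6 rose, 2 of them among the 3 that passed through PHX-D7 alone. Ube2c, which loads ubiquitin for the anaphase-promoting complex, measured 2.39, 0.789 and 1.67 FPKM in Normal liver and 9.16, 8.48 and 7.88 FPKM at PHX-D7. The groups did not overlap, and the difference was 1.91 ± 0.33 (limma adjusted p = 3.9e-04). Ccnb2, a mitotic cyclin, rose by 1.44, and Uhrf1, which maintains DNA methylation during replication, by 1.46. Mki67, the proliferation marker Ki-67, measured 0.529, 0.269 and 0.396 FPKM and 1.7, 1.72 and 1.17 FPKM. Its difference of 0.85 ± 0.28 was below 2-fold on the log2(FPKM + 1) scale, which understates differences at such low levels. It too passed through PHX-D7 alone. The median of the mitosis list was 1.12, and 0.87 to 2.26 over the alternative settings. With median centring 7 mitosis and 2 S phase genes rose, and with quantile normalization 4 and 2. The S phase count was 2 without PHX-D7 replicate 1 and 3 without PHX-D7 replicate 2 or Normal liver replicate 1 or 2.

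Regulators of entry into the cycle included genes that restrain it. Of 15 G1 regulators 6 rose, namely Btg2, Gadd45g (2.91), Myc, Cdkn1a (2.88), Gadd45b (2.51) and Cdkn2c (1.44). Cdkn1a and Cdkn2c encode inhibitors of cyclin-dependent kinases and the Gadd45 genes are stress-induced. Cdkn1a measured 2.34, 0.827 and 1.64 FPKM in Normal liver and 22, 16.2 and 15.2 FPKM at PHX-D7, without overlap (limma adjusted p = 0.0045). Ccnd1, the cyclin of G1, measured 9.46, 5.71 and 7.17 FPKM and 12.7, 9.33 and 9.31 FPKM and did not pass, with a difference of 0.45 ± 0.34. Of 12 p53 target genes tested of 16 listed, 4 rose, Gdf15, a stress cytokine, by 3.67 and Cdkn1a as above.

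Of the 4 transcription factors that the study chose from its livers and cultures, 2 passed the filter. Both were below 1 FPKM in every Normal sample and passed through PHX-D7 alone, so that the filter fixed their direction. In liver the study took factors that rose at 6 h, 24 h or D3 and had returned to normal levels at PHX-D7 and PHX-D14. Its choice, which also used the cultures, thus rested on their level at PHX-D7, and their values are given as a description. Summed over the 4, they were at 0.5114 to 0.8079 FPKM in Normal liver and 4.786 to 7.335 FPKM at PHX-D3. The sum was 3.663 to 4.129 FPKM at PHX-D7, above every Normal sample, and 1.293 to 1.973 FPKM at PHX-D14. Mxd3, a partner of MAX, measured 0.245, 0.221 and 0.359 FPKM in Normal liver and 1.99, 1.3 and 1.41 FPKM at PHX-D7, a difference of 1.0 ± 0.16. It stood at the 2-fold limit and was below it without Normal liver replicate 1 (0.99) or 2 (0.97), without PHX-D7 replicate 1, with median centring and with quantile normalization. Foxm1, a driver of mitotic genes, measured 0.283, 0.0862 and 0.115 FPKM and 1.24, 1.06 and 1.12 FPKM. Its difference of 0.89 ± 0.20 was below 2-fold on the log2(FPKM + 1) scale, which understates differences at such low levels. Over the alternative settings the median of these 2 genes ran from 0.51 to 2.74. Elf3 measured 0.263, 0.204 and 0.334 FPKM and 0.881, 1.3 and 1.17 FPKM and was not tested, and Barx2 was at or near 0 in all 6 samples.

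None of 9 hepatocyte markers tested passed in limma or in limma voom, and 1 was lower at an unadjusted p under 0.05. Their sum was 61040 to 65470 FPKM in Normal liver and 45650 to 52990 FPKM at PHX-D7, so that every PHX-D7 sample was below every Normal sample. Alb measured 35611, 40899.8 and 33689.7 FPKM in Normal liver and 25711, 31451 and 29527 FPKM at PHX-D7, and its difference of -0.35 ± 0.30 did not pass (limma adjusted p = 0.42). Among 20 hepatocyte transcription factors 2 rose, Cebpd by 2.62 and Cebpb by 1.76, both members of the C/EBP family that also respond to cytokines. Such a count is near the 8.13% of all genes tested that were higher. Hnf4a, the master regulator of hepatocyte genes, differed by -0.06 ± 0.18 and did not pass. No gene passed among 24 of sterol synthesis, 15 of bile acid synthesis, 28 of the urea cycle and amino acid metabolism, 20 of pericentral hepatocytes or 25 of ribosome biogenesis. At an unadjusted p under 0.05, 4 bile acid synthesis and 9 ribosome biogenesis genes were lower and none higher, and each of the other 3 lists held 1 higher and 1 lower gene. Limma voom on recovered reads called 1 ribosome biogenesis gene lower and none in the other 4 lists. Cyp1a2 and Glul, both pericentral, differed by 0.17 and 0.35, and Arg1, of the urea cycle, by 0.02, and the signs of Cyp1a2 and Arg1 turned with median centring. Of 20 periportal genes 1 rose, Ctsc by 1.89, a lysosomal protease that leukocytes also express.

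**Figure D3:**
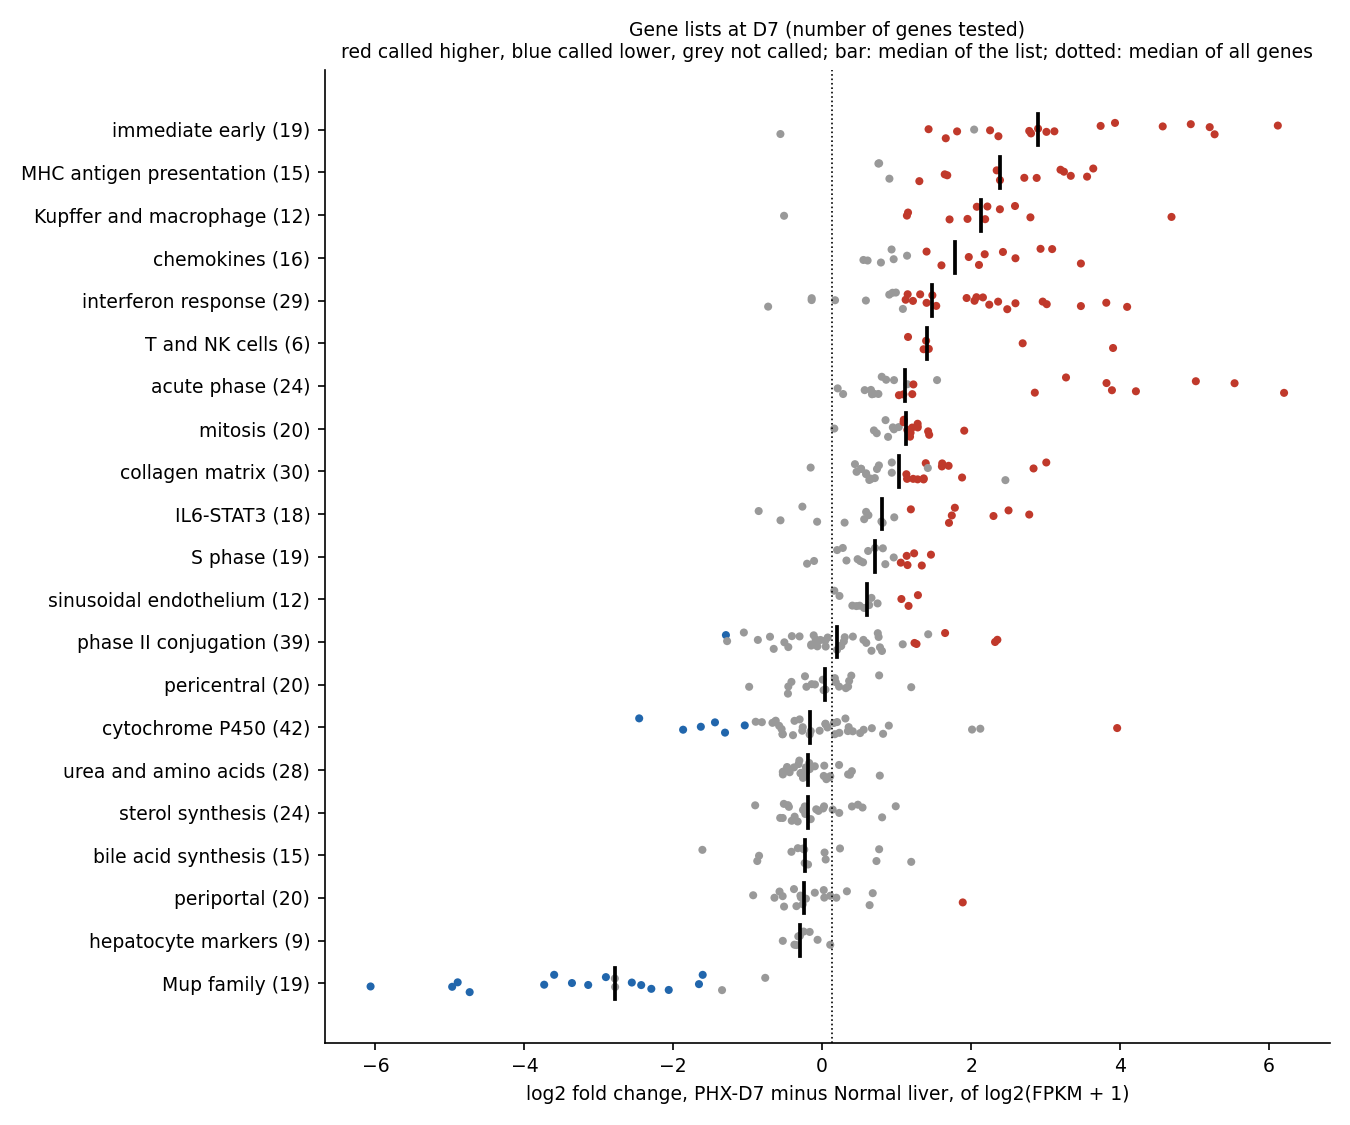
Difference of each gene between PHX-D7 and Normal liver (x axis, log2 scale) in 21 gene lists (rows, with the number of genes tested). Each point is a gene, red where called higher, blue where called lower and grey where not called, with a bar at the median of the list and a dotted line at 0.13, the median of all genes. Immediate early, MHC and macrophage genes lie to the right and the Mup family to the left, with hepatocyte markers near the dotted line.

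Genes of the major urinary proteins fell. These small lipocalins are secreted by the liver and carry pheromones in urine. Of 21 Mup genes listed 19 were tested and 15 fell, against a background of 1.06%, with a median of -2.79 beside 0.13 over all genes. The filter admitted 2 of the 19 through Normal liver alone, which could only be lower, and of the other 17, 13 fell. On GRCm38.p6 (RefSeq) the 21 genes lie in 1 cluster of 2.19 Mb on chromosome 4, from 59956804 to 62150841. Mup15 measured 3320.3, 717 and 295 FPKM in Normal liver and 14.4, 9.66 and 13.3 FPKM at PHX-D7. The Normal samples were spread widely, but the lowest was far above the highest PHX-D7 sample, and the difference was -6.07 ± 0.80 (limma adjusted p = 3.2e-05), or -5.12 without Normal liver replicate 1. Mup7 measured 9756, 6285 and 4174 FPKM and 168, 136 and 359 FPKM, a fall with a difference of -4.97 ± 0.65. Mup20, also called darcin and more distinct in sequence than the others, measured 4449, 3194 and 3876 FPKM and 933, 687 and 545 FPKM, without overlap (-2.43 ± 0.35, limma adjusted p = 8.9e-05). Reads of the near-identical Mup genes can be shared among copies, so single values are uncertain. A sum over the family is less open to that sharing, and was 32520 to 52760 FPKM in Normal liver and 5370 to 8690 FPKM at PHX-D7. Without Normal liver replicate 2 the number that fell was 11, with Mup2 and Mup14 among those lost. Mup14 was lost too without Normal liver replicate 1, and without PHX-D7 replicate 1 or 3, Mup2 without PHX-D7 replicate 2, and Mup10 without PHX-D7 replicate 2.

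Mup genes are expressed more in males than in females, and other genes with a sex bias in liver were among those called. Of 18 male-biased genes, some of them Mup genes, 6 fell, with a median of -1.37. Hsd3b5, a steroid dehydrogenase, measured 242, 285 and 274 FPKM in Normal liver and 26.7, 22 and 20.4 FPKM at PHX-D7. The groups lay far apart, by -3.48 ± 1.09, with an adjusted p = 0.025 (limma) from a spread shared with the other liver groups of the fit, and leaving out any 1 of the 6 libraries gave 0.053 to 0.067. It did not pass with a pseudocount of 0.1. Elovl3, a fatty acid elongase, fell by 1.99 and by 1.61 without Normal liver replicate 1, which did not pass. Without Normal liver replicate 1, 2 of the 18 fell, and without PHX-D7 replicate 1, 3 fell. Of 21 female-biased genes 7 were tested and 2 rose, and Cyp2b9, a cytochrome P450, measured 0.0889, 1.22 and 0.226 FPKM and 18.3, 22.1 and 24.1 FPKM, a rise of 3.96 ± 0.88. The filter admitted 1 of the 7 through PHX-D7 alone, and it was 1 of the 2 that rose. The labels used here do not give the sex of the mice. The Y-linked gene Ddx3y measured 13.8, 17.9 and 11.2 FPKM in Normal liver and 10.7, 6.91 and 7.27 FPKM at PHX-D7, and Eif2s3y, also Y-linked, 29.2, 41.5 and 29.8 FPKM and 20.2, 16.2 and 17.6 FPKM. Both were detected in all 6 samples, with the PHX-D7 samples below the Normal samples, and neither fell by the rule used (log2 differences of -0.72 and -0.85, limma adjusted p = 0.029 and 0.0018).

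In metabolism most genes tested did not pass. Among 42 cytochrome P450 genes tested of 47, 1 rose (Cyp2b9) and 6 fell, with a median of -0.16. Over all genes tested 8.13% were higher and 1.06% lower, so that falls were more frequent among P450 genes than over all genes. Cyp2c69 fell by 2.46 and Cyp2c40 fell by 1.87, but Cyp2c40 passed in only 1 of the 6 fits without a library, and 3 of the 42 fell without PHX-D7 replicate 1. Among 39 phase II conjugation genes 5 rose, beside the same 8.13% over all genes, and 1, Ugt2b38, fell, by 1.29. Ugt2b38 and Gsta2, 1 of the 5 that rose, passed in none of the 6 fits without a library. The number that rose was 3 without Normal liver replicate 1 or PHX-D7 replicate 1 or 2, and 3 with median centring. Nqo1 and Gsta1, targets of the oxidative stress factor NRF2, rose by 2.35 and 2.32.

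Of 20 fatty acid synthesis genes 3 fell, Mlxipl, Elovl3 and Elovl6, and 1 rose, Scd2 by 1.37. The shares over all genes tested were 1.06% lower and 8.13% higher. Mlxipl encodes ChREBP, the factor that activates lipid synthesis genes in response to glucose, and measured 74.3, 81.4 and 69.1 FPKM in Normal liver and 17.3, 18.9 and 17.7 FPKM at PHX-D7. The groups did not overlap (-2.0 ± 0.54, limma adjusted p = 0.011). Elovl6 was at -0.79 without Normal liver replicate 3, and at the 2-fold limit or below it without PHX-D7 replicate 1 or 3. Among 27 fatty acid oxidation genes tested 1 rose, the fatty acid carrier Cd36 by 1.48.

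Of 27 glucose metabolism genes 5 rose, with Hk3 at 2.88 and Pkm at 2.46, both isoenzymes that are low in hepatocytes and present in leukocytes. The filter admitted 1 of the 27 through PHX-D7 alone, which could only be higher, and of the other 26, 4 rose. Ppp1r3g, a glycogen-targeting subunit of protein phosphatase outside the lists, was among the 12 largest rises, from 0.389, 1.18 and 1.51 FPKM to 37.4, 38.2 and 35.6 FPKM (4.28 ± 0.53, limma adjusted p = 1.9e-05). Of 19 growth hormone and IGF axis genes tested, Irs2, an insulin receptor substrate, rose by 2.83 and Bcl6, a repressor that acts in male liver, fell by 1.76. Bcl6 did not pass without Normal liver replicate 1 (-1.11).

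The remaining lists held few changes. Over all genes tested 8.13% were higher and 1.06% lower, and the clock and endoplasmic reticulum counts of rises were near the first share. Of 18 iron and heme genes 3 rose, with Hmox1, which degrades heme, at 1.91, and 1 rose without PHX-D7 replicate 1. Hmox1 was lost there and without Normal liver replicate 1. Of 16 growth factor genes tested, Hbegf and Erbb3 rose and Inhbe, an activin subunit of hepatocytes, fell by 1.81. Hbegf passed in none of the 6 fits without a library, and Erbb3 was at 0.91 without Normal liver replicate 3. Of 18 clock genes Per1 (1.58) and Nfil3 (1.18) rose, and Nfil3 was lost in 5 of the 6 fits. Of 24 genes of the endoplasmic reticulum and amino acid stress responses Ppp1r15a (2.21) and Sesn2 rose and Hsp90b1 fell by 1.02. Sesn2 passed in none of the 6 fits, and Hsp90b1 was below 2-fold without Normal liver replicate 1 or 2. Of 6 fetal liver genes tested of 14 listed, Plac8 (2.7) and Spink1 (1.3) rose, Spink1 not without PHX-D7 replicate 1. Of 19 bile and organic anion transporters Abcc4 rose by 1.02, below 2-fold without Normal liver replicate 1 or 3 and without PHX-D7 replicate 1 or 2. Abcc4 passed the filter through PHX-D7 alone and so could only be higher. The same held for 1 of the 2 fetal liver genes and 1 of the 2 growth factor genes that rose. With both other scalings Abcc4, Erbb3, Hbegf, Nfil3 and Sesn2 did not pass.

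PHX-D7 was next compared with PHX-D3, the time at which mitosis genes had their highest median in these livers (1.75 against Normal liver). The comparison shares its PHX-D7 samples with the one above, and its genes were chosen on PHX-D7 and Normal liver alone. Genes that reached 1 FPKM only at PHX-D3 could not enter, while 503 had entered through PHX-D7 and not Normal liver. Of 10642 genes 798 were higher at PHX-D7 (7.5%) and 129 lower (1.21%), with a median of 0.15, and without PHX-D3 replicate 2 the counts were 857 and 154. Interferon response genes were higher in 27 of 29, or 26 without PHX-D3 replicate 2, and MHC and antigen presentation genes in 14 of 15 either way. Tgtp1 had the largest difference, 6.47 on the log2 scale (6.18 without PHX-D3 replicate 2), from 0.737, 0.148 and 1.55 FPKM at PHX-D3 to the 139, 161 and 156 FPKM above. H2-Eb1, H2-Ab1, H2-Aa and Cd74 followed, with 5.35 to 5.51, or 4.83 to 5.15 without that library. H2-Ab1 measured 6.78, 2.37 and 7.08 FPKM at PHX-D3, below every sample of Normal liver and of PHX-D7. Immediate early genes were higher in 13 of 19, or 17 without PHX-D3 replicate 2. Macrophage markers were higher in 11 of 12 either way, and 1 was lower, or 0 without that library.

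In the opposite direction, 10 of 24 acute phase genes were lower at PHX-D7 than at PHX-D3 and 1 was higher, or 6 and 2 without PHX-D3 replicate 2. The number lower was 5 without PHX-D3 replicate 1 or any 1 PHX-D7 library, and 16 without PHX-D3 replicate 3. Saa2 had a log2 difference of -2.67, or -2.24 without PHX-D3 replicate 2, and Lcn2 measured 1709.7, 6557 and 331 FPKM at PHX-D3. Mitosis genes were lower in 3 of 20, in 9 without PHX-D3 replicate 2 and in 0 without PHX-D3 replicate 3. Apoa4, an apolipoprotein, had a difference of -4.54, or -2.52 without PHX-D3 replicate 2. Asns, which makes asparagine and responds to amino acid stress, had a difference of -2.73, and Scara5, a ferritin receptor, one of -2.63, or -2.36 and -2.41 without that library. Cytochrome P450 genes were higher at PHX-D7 in 11 of 42 and lower in 2, and phase II genes higher in 13 of 39, but without PHX-D3 replicate 2 these were 6, 2 and 8. The P450 number higher was 18 without PHX-D3 replicate 3 and 4 to 6 without a PHX-D7 library, and the phase II number 22 without PHX-D3 replicate 3. Pericentral genes were higher in 4 of 20, in 0 without PHX-D3 replicate 2, in 8 without PHX-D3 replicate 3 and in 2 without PHX-D7 replicate 1 or 3. These counts thus depend on single libraries.

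PHX-D14 was the last time of the series. Against PHX-D14, 817 genes were higher at PHX-D7 (7.68%) and 46 lower (0.432%), with a median of 0.24 over all genes. The PHX-D7 samples and the genes tested are again the same. Genes that reached 1 FPKM only at PHX-D14 could not enter, while 503 had entered through PHX-D7 and not Normal liver. Interferon response genes were higher at PHX-D7 in 21 of 29, MHC genes in 12 of 15, macrophage markers in 11 of 12 and chemokines in 10 of 16. Tgtp1 measured 2.75, 4.73 and 5.98 FPKM at PHX-D14, against 139 to 161 FPKM at PHX-D7, a difference of 4.85 ± 0.31. Gbp2 measured 2.24, 3.29 and 2.5 FPKM, near the Normal samples, and H2-Ab1 measured 31.3, 35.7 and 43.7 FPKM. Gbp2b, Gm4841 and Serpina3g, all inducible by interferon-gamma, were higher at PHX-D7 by 4.15, 4.12 and 3.79. Without PHX-D7 replicate 1 the chemokine count was 7.

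Of 19 immediate early genes 5 were higher at PHX-D7 than at PHX-D14, with a median of 0.23 beside the 0.24 of all genes, and 8 were higher without PHX-D14 replicate 3. That library stood apart, with a summed level of 2332 FPKM over the list against 773.7 and 1118 FPKM in the other two and 1829 to 1921 FPKM at PHX-D7. Nr4a1 measured 68.7, 48.8 and 91.4 FPKM at PHX-D14, a range that holds all 3 values at PHX-D7, and differed by -0.03 ± 0.41. Btg2 measured 193, 226 and 323 FPKM, with a PHX-D7 mean of 158 FPKM. Fos measured 5.52, 5.9 and 103 FPKM at PHX-D14, where replicate 3 was close to the PHX-D7 samples and the other two were far below. Its difference was 2.95, or 4.26 without PHX-D14 replicate 3. Mt2 measured 325, 296 and 591 FPKM, around the PHX-D7 values.

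Acute phase genes were higher at PHX-D7 than at PHX-D14 in 8 of 24, with Lcn2 at 18.4, 21.6 and 41 FPKM at PHX-D14. Mitosis genes were higher in 8 of 20, in 2 with median centring and in 1 with quantile normalization, and S phase genes in 7 of 19, in 1 with either of those scalings, in 1 without PHX-D7 replicate 1, in 4 without PHX-D7 replicate 2 or PHX-D14 replicate 1 and in 3 without PHX-D14 replicate 2. As above, 14 of the 20 mitosis genes and 3 of the 19 S phase genes had passed the filter through PHX-D7 alone. Ube2c measured 2.23, 1.61 and 3.14 FPKM at PHX-D14. Mup genes were lower at PHX-D7 in 9 of 19, and Mup15 had a mean of 868 ± 825 FPKM (SD, n = 3) at PHX-D14, spread widely, as in Normal liver. The 6 largest differences below PHX-D14 were all Mup genes.

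**Figure D4:**
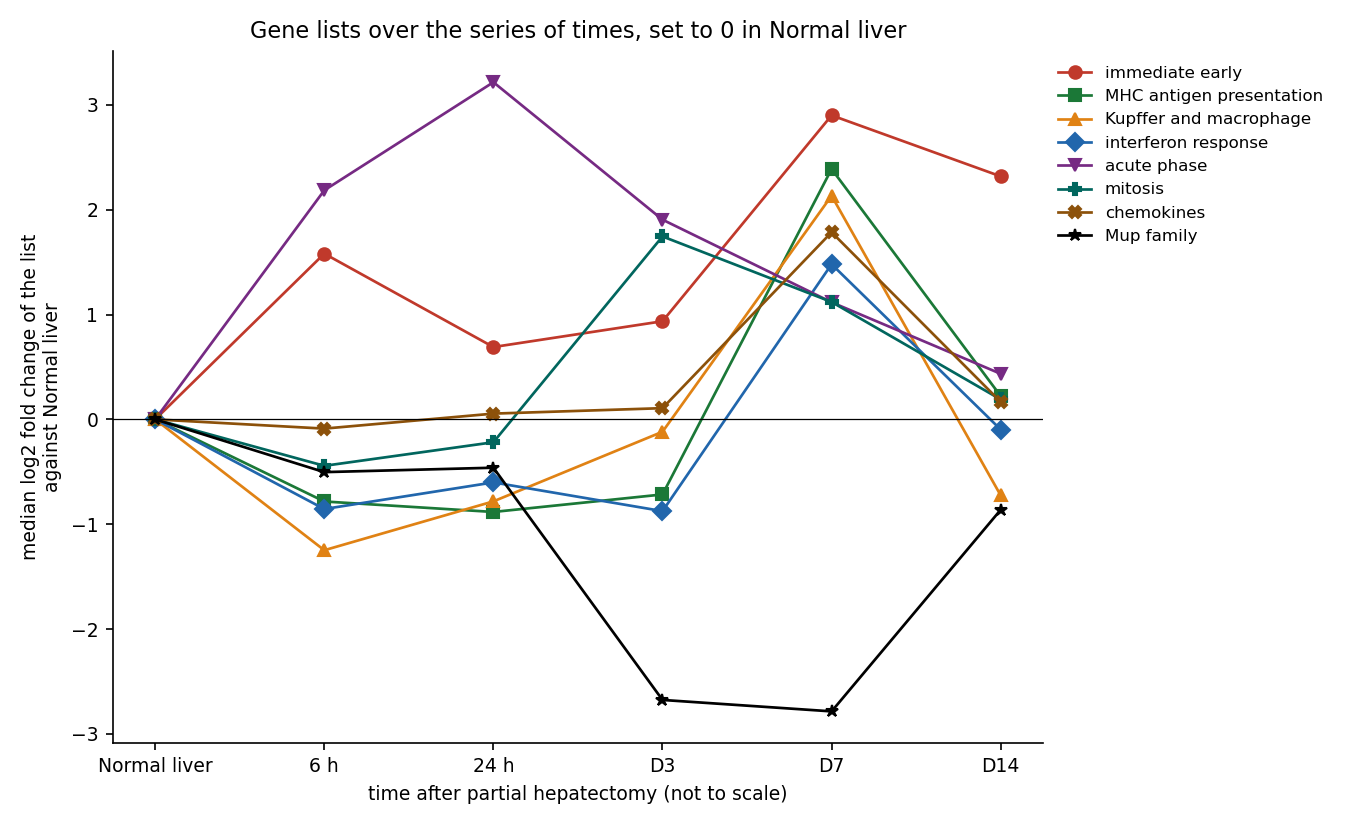
Median log2 difference of gene lists against Normal liver (y axis) at the 5 times after hepatectomy (x axis, not to scale), with Normal liver set to 0. MHC, macrophage, interferon and chemokine genes reach their highest medians at D7 (2.39, 2.13, 1.48 and 1.79), acute phase genes at 24 h (3.22) and mitosis genes at D3 (1.75), while the Mup family is lowest at D7 (-2.79).

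Set against Normal liver, the medians of the lists ran in different courses. MHC genes were at -0.78, -0.88 and -0.72 at 6 h, 24 h and D3, at 2.39 at D7 and at 0.22 at D14. Macrophage markers were at -1.25 and -0.78 at the 2 earliest times and at 2.13 at D7. Immediate early genes were at 1.58 at 6 h, 0.69 at 24 h, 2.90 at D7 and 2.32 at D14. Acute phase genes had a median of 3.22 at 24 h and 1.12 at D7. The Mup family was at -2.68 at D3 and -2.79 at D7, and at -0.86 at D14. These medians are descriptions, since all share the Normal liver samples and the order of times carries no test here.

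**Figure D5:**
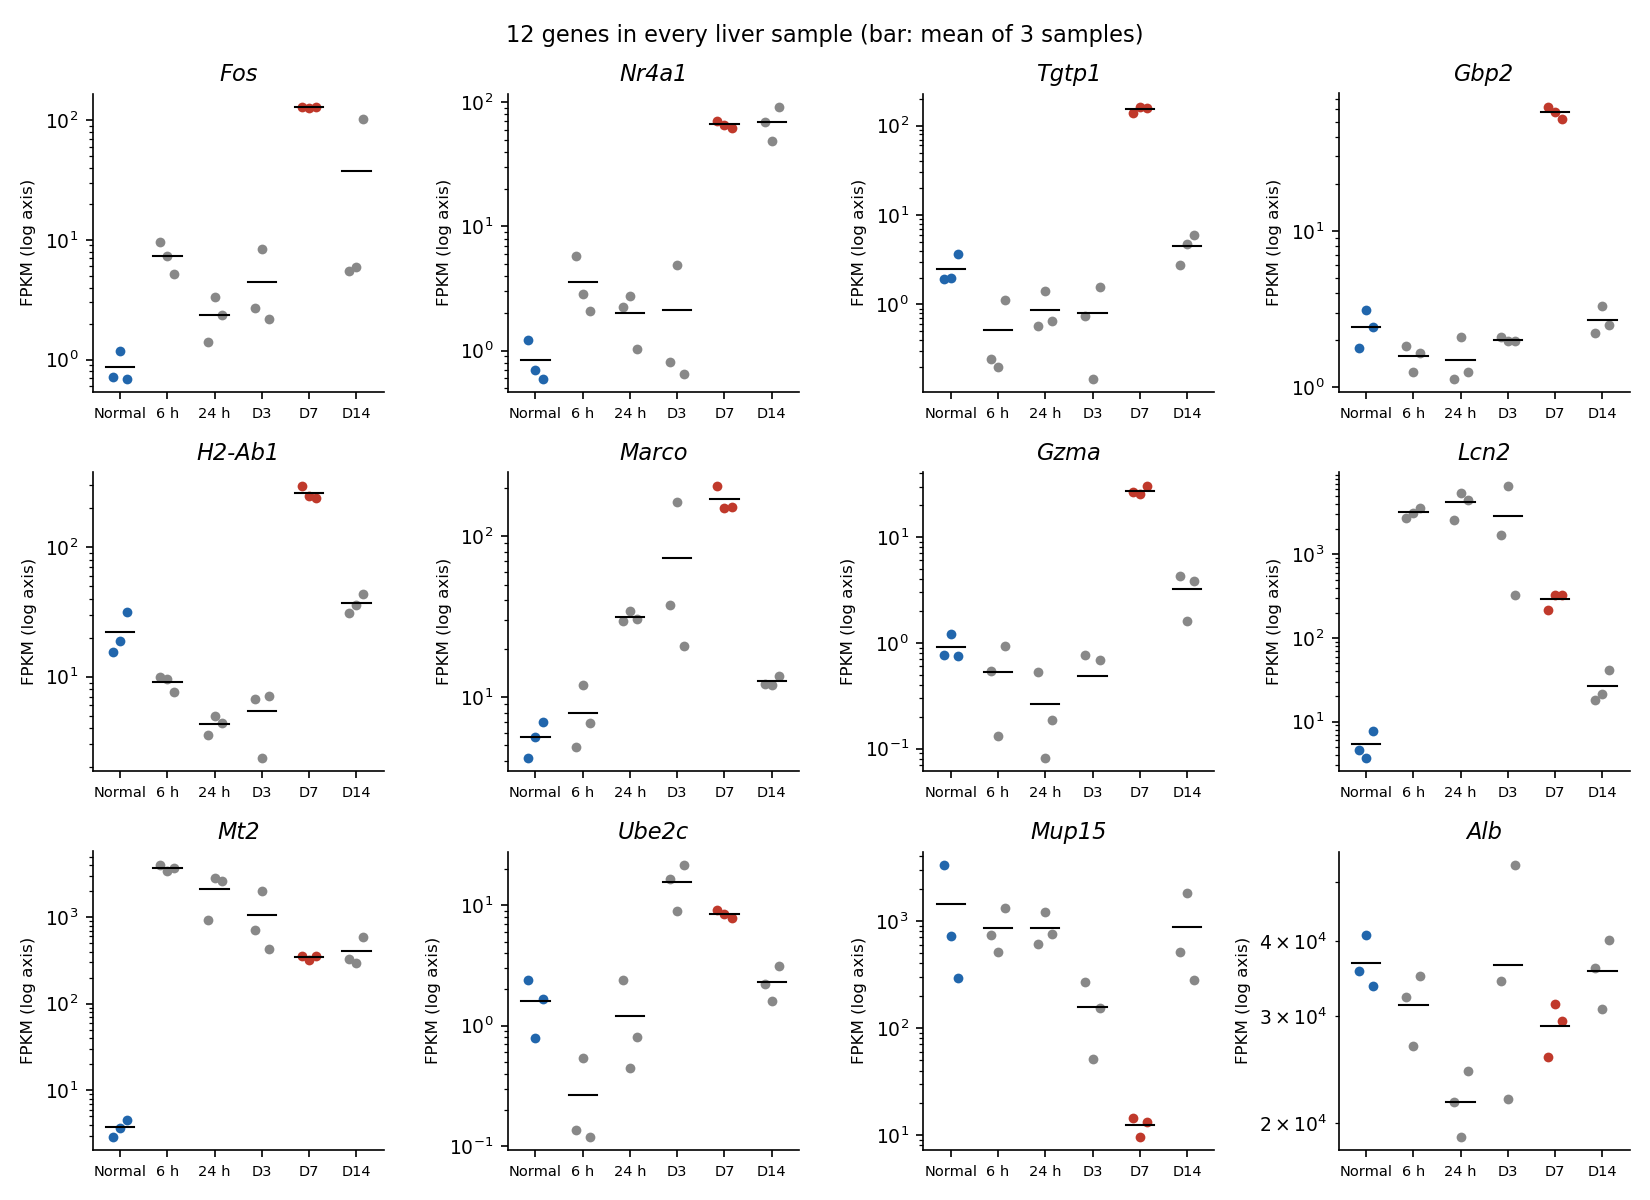
FPKM (log axis) of 12 genes in each of 18 liver samples by time after hepatectomy, with a bar at the mean of 3 samples, Normal liver in blue and PHX-D7 in red. One PHX-D3 sample of Gzma is at 0 and not drawn. Tgtp1, Gbp2, H2-Ab1 and Gzma are highest in the 3 PHX-D7 samples, Nr4a1 is as high at D14, Lcn2 and Mt2 are highest before D7, and Mup15 is lowest at D7.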

How the data were processed

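Whole liver RNA was sequenced from 18 mouse liver samples, 3 at each of 6 conditions, and this text used mainly PHX-D7 and Normal liver. Each gene symbol had 1 deposited value in each sample. The deposited values were taken as FPKM that the authors had made from mapped reads, because values multiplied by gene length summed to nearly the same total in all samples. The submitters' notes name TopHat 1.4.1, Cufflinks 1.3.0 and mm10. The table had 17475 rows, 144 of them at 0 in every sample, with 25 symbols turned into dates and 2 duplicate symbols averaged. No value column lacked a sample.

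Values of a gene were multiples of what 1 read is worth in that library, so whole reads were recovered for all 17331 rows with a value, up to a common factor. Depth was 52.1 M to 79.3 M reads (M, mega) over the 18 samples. Replicates of a group differed by more than sampling noise, so none was a duplicate.

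Genes that reached 1 FPKM in 3 or more of the 6 samples were fitted on the scale log2(FPKM + 1). The fit was made by limma 3.58.1 (R 4.3.3), with all 18 liver samples in 1 fit, a trend in the prior variance and 12 residual degrees of freedom. Differences on this scale understate changes of low genes. P-values were adjusted by Benjamini-Hochberg. In a test on simulated data for PHX-D7 against Normal liver, 94 of 100 genes changed by 1.5 on the log2 scale, 94 of 100 changed by 2 and 0 of 10442 unchanged genes were called, among 10642. The changed genes were drawn from those above 5 FPKM in Normal liver, and noise was normal with equal spread in all groups. The test thus does not cover changes of low genes, such as the 503 that entered through PHX-D7 alone, or groups of unequal spread.

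The 49 gene lists rest on general knowledge, and members and lists were chosen with earlier results of these data known. Lists are described by counts and medians and were not tested. Genes named by rule, 125 in all, are the 12 largest rises and 12 largest falls whose groups did not overlap, up to 2 rises and 2 falls of each list, genes the study names, defining markers, and the 6 largest differences each way against PHX-D3 and PHX-D14. Cd163, Cd79a, Cdkn2c, Ciita, Col1a1, Col1a2, Col4a1, Cxcl10, Ddx3y, Egr1, Elovl6, Gadd45b, Gbp3, Gbp6, Ifit2, Ifit3, Iigp1, Il6st, Irf7, Isg15, Kdr, Myc, Orm2, Psmb8, Psmb9, Rsad2, S100a4, Saa1, Socs3, Tap1, Tgfb1 and Wwtr1 were added with their values known, as were the list members given for PHX-D3 and PHX-D14 and the genes of the last section.

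Promoter sequences were taken from RefSeq (GRCm38.p6), which held 8283 of the 10642 genes tested among 27025 promoters. Alternatives were a pseudocount of 0.1, no filter and a filter at 5 FPKM, quantile normalization, median centring, a replicate block, the 6 samples alone, limma voom on recovered reads, other fold thresholds and leaving out each library. Figures and tables used Python 3.11.15 with numpy 2.4.6, pandas 2.3.3 and matplotlib 3.10.9.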

Additional observations from a re-analysis of the deposited data

Results flagged for a closer look

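Differences of PHX-D7 from Normal liver were set against those of other times by testing the times directly against each other in limma, and genes that differed between the times at an adjusted p under 0.05 and 2-fold are given here. Against PHX-D3 this held for 927 genes and against PHX-D14 for 863 genes.

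Of the 12 largest rises over Normal liver, 7 were higher at PHX-D7 than at PHX-D14. The log2 differences from PHX-D14 were 4.85 for Tgtp1, 3.99 for Ubd, 3.64 for Marco, 3.43 for Lcn2, 2.95 for Fos, 2.74 for Ppp1r3g and 1.62 for Jun. The other 5 were Mt1, Mt2, Atf3, Nr4a1 and Btg2. In Fos and Jun 1 PHX-D14 library lay far above the other two. Fos measured 5.52, 5.9 and 103 FPKM there, and its difference was 2.27, 2.31 and 4.26 without PHX-D14 replicates 1, 2 and 3. Jun measured 24.6, 36.9 and 183 FPKM at PHX-D14. Its difference was 1.05, 1.33 and 2.47 without the same replicates, and it did not pass without PHX-D14 replicate 1 (limma adjusted p = 0.093), without PHX-D14 replicate 2 (0.09) or without PHX-D7 replicate 2 (0.052). Ppp1r3g measured 13.2, 0.506 and 7.77 FPKM at PHX-D14 and was at 3.39 without replicate 1 and 1.77 without replicate 2.

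Of the 12 largest falls, 8 Mup genes were lower at PHX-D7 than at PHX-D14, while Cyp2c69 was higher by 2.06. The log2 differences were -5.59 for Mup15, -4.43 for Mup8, -4.4 for Mup12, -3.77 for Mup11, -3.62 for Mup7, -3.0 for Mup9, -2.68 for Mup10 and -2.6 for Mup1. Without 1 library Mup15 ranged from -6.18 to -4.84, Mup9 from -3.66 to -2.24 and Mup12 from -5.43 to -3.16, and Mup8 was at -5.11 without PHX-D14 replicate 3. Mup10 did not pass without PHX-D7 replicate 2 (-1.77, limma adjusted p = 0.12) or PHX-D14 replicate 2 (-2.22, 0.1). These genes share sequence, so the 8 values are not independent of each other.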

How the results depend on the processing

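The direction of all 122 named genes tested and their side of the threshold were kept with a replicate block and with the 6 samples alone. They were kept in 116 with a pseudocount of 0.1, 120 with no filter, 106 with quantile normalization, 105 with median centring and 104 to 113 without 1 library. Genes whose sign turned were not called in any of these settings. Arg1 was at -0.187 and Cyp1a2 at -0.037 with median centring, and Cyp1a2 from -0.057 (without Normal liver replicate 2) to 0.342 on leaving out a library. On leaving out a library Hnf4a ranged from -0.283 to 0.170 (without Normal liver replicate 1) and Lrat from -0.338 to 0.231 (without Normal liver replicate 2), with 0.054 without PHX-D7 replicate 3. Scara5 was at -0.242 with quantile normalization, -0.124 with centring and from -0.034 (without Normal liver replicate 1) to 0.266 on leaving out a library. Upk3b was at -0.019 with the pseudocount of 0.1, -0.230 with quantile normalization, -0.108 with centring and from -0.349 (without PHX-D7 replicate 1) to 0.464 on leaving out a library. Against PHX-D14, Nr4a1 ranged from -0.256 to 0.189 (without PHX-D14 replicate 3), with 0.021 without PHX-D7 replicate 3.

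Counts of changed genes moved more, and the cause was not tested except that fewer genes were tested at 5 FPKM (6865) and that other fold thresholds count other sets by construction. Against Normal liver the pseudocount of 0.1 gave 198 lower genes, the 5 FPKM filter 596 in all (523 higher, 73 lower), quantile normalization 251 lower, centring 207 lower and limma voom 1483 in all with 216 lower. With no fold threshold there were 3186 (2483 and 703) and at 1.5-fold 2090 (1716 and 374). Against PHX-D3 the pseudocount gave 236 lower, the filter 75, quantile normalization 310, centring 228, and voom 1392 in all with 243 lower. No fold threshold gave 3788 (2851 and 937) and 1.5-fold 2291 (1822 and 469). Against PHX-D14 the pseudocount gave 1323 (1272 higher), the filter 511 (475 higher), quantile normalization 484 higher and 108 lower, centring 510 and 96, the 6 samples alone 76 lower, and voom 1407 (1354 higher). No fold threshold gave 3196 (3007 and 189) and 1.5-fold 2036 (1936 and 100). In all 10 gene lists had a median at least 1 above that of all genes, 8 to 14 over all settings.

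Leaving out 1 library of a comparison gave 809 to 1010 changed genes against Normal liver (702 to 914 higher, 91 to 118 lower), 793 to 1146 against PHX-D3 (668 to 978, 108 to 172) and 712 to 921 against PHX-D14 (677 to 883, 34 to 45).

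Same-numbered samples of PHX-D7 and Normal liver had deviations that correlated at -0.145, -0.287 and 0.166, and differently numbered ones at -0.142 to 0.295. Same-numbered pairs thus did not stand out, but deviations from means of 3 samples cannot exclude a pairing. With the number as a replicate block 973 genes were called (859 higher, 114 lower), 970 of them the same as without it, 807 and 131 against PHX-D3 and 819 and 47 against PHX-D14. With 3 samples a group and 57.3 M to 73.2 M reads at PHX-D7, depth limits mainly genes under 1 FPKM.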

Other observations

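Genes of this section were picked after their values had been seen. Il10, an anti-inflammatory cytokine, measured 0, 0.0824 and 0.0794 FPKM in Normal liver and 16.2, 9.42 and 10.2 FPKM at PHX-D7, a difference of 3.58 ± 0.30. Gzmb, a protease of cytotoxic lymphocytes like Gzma, measured 0.224, 0.468 and 0.292 FPKM and 11.8, 23.4 and 21.3 FPKM, a difference of 3.85 ± 0.23. Both genes were below 1 FPKM in every Normal sample and passed the filter through PHX-D7 alone. The filter thus fixed their direction, and their values are given as a description. Ifng, which encodes interferon-gamma itself, measured 0, 0 and 0.0286 FPKM in Normal liver and 0.376, 1.2 and 0.823 FPKM at PHX-D7 and was below the filter, so it was not tested.

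Leng8, Ccnl2, Luc7l3 and Pnn, genes linked to RNA splicing and nuclear speckles and outside the lists, fell at PHX-D7. Leng8 measured 15.4, 15.1 and 12.2 FPKM in Normal liver and 2.38, 2.44 and 2.79 FPKM at PHX-D7 and fell by 2.1. Ccnl2 fell by 1.56, Luc7l3 by 1.5 and Pnn by 1.43. At PHX-D14 these genes were near their PHX-D7 levels, with log2 differences (PHX-D7 minus PHX-D14) of 0.14, 0.11, 0.07 and 0.39.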
